A study of Mus musculus with 7 samples.

Results

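The genes that write and erase methyl groups on histone lysines were compared between mouse embryonic stem cells (mESCs) and mouse embryonic fibroblasts (MEFs). The members were taken by symbol from the gene count table. They are the genes whose names follow the Kmt2 to Kmt5, Setd1 to Setd9 and Kdm2 to Kdm7 patterns, with Nsd1, Nsd2, Nsd3, Dot1l, Ash1l and the complex subunits Ash2l, Wdr5, Rbbp5, Dpy30 and Men1. The rule left out 3 symbols of this kind and found 38 genes among the 55484 listed.

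Lysine methylation of histone tails marks active and silent chromatin according to the residue that carries it. Methylation of H3K4 lies at promoters and enhancers, and H3K36 trimethylation and H3K79 methylation lie over transcribed genes. H3K9 methylation and the trimethylation of H3K27 and H4K20 are found mostly in repressed chromatin. SET domain proteins and Dot1l add the methyl groups, and the Kdm2 to Kdm7 families remove them with a Jumonji domain that uses oxygen, iron and 2-oxoglutarate. In pluripotent cells these enzymes are known to help keep developmental genes poised while the genes of the stem cell state are transcribed.

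The RNA of 4 MEF samples and 3 mESC samples, all on a C57/Bl6 background with no treatment named, was sequenced. The mESCs are pluripotent cells derived from the early embryo, and the MEFs are connective tissue cells grown from later embryos. The libraries were made by a 3′-biased method that primes at the poly(A) tail and tags each molecule with an identifier. Libraries are called O1 to O4 for MEFs and Y1 to Y3 for mESCs after the letter and last number of the count columns, which the sources used here do not explain. The study's legends call its RNA samples biological replicates, with equal numbers for both cell types. All 4 MEF columns of the table were used here, against 3 for mESCs, and which MEF libraries the legends mean is not given. Separate cultures or animals are not named for the libraries, so the p-values measure the spread between these libraries, which may be partly technical. The extraction protocol in the labels speaks of blood stem cells of young and aged mice, while titles, sources and cell type fields name MEFs and mESCs. The letters O and Y run fully along the cell types, and whether they mark an age is not given, so a difference of that kind cannot be told apart from the cell type.

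Library totals ran from 6528643 to 11441278 counts, and 3 counts, taken as the floor of a library, were worth 0.288 to 0.477 CPM (counts scaled to a common library size by edgeR's TMM method, counting error only). Markers of pluripotency, such as Pou5f1 and Nanog, were higher in mESCs in 10 of 10 cases, and their summed level was 42.9 to 47.3 CPM in MEF libraries and 3372 to 3640 CPM in mESC libraries. Fibroblast markers such as Col1a1 and Thy1 were lower in mESCs in 10 of 10 cases, with sums of 23649 to 40387 CPM in MEFs and 164 to 188 CPM in mESCs. Of 10 blood cell markers, Laptm5 was higher and Cd53 lower in mESCs, the sums were 7.62 to 23.4 CPM in MEFs and 59.7 to 71.0 CPM in mESCs (52.6 to 62.4 CPM of it from Laptm5), and Gfi1b had at most 3 counts in every library. Ptprc, which marks blood cells in general, had 1, 6, 17 and 6 counts in O1 to O4 and 0, 1 and 0 counts in Y1 to Y3. Cd48 had 6, 1, 10 and 4 counts in O1 to O4 and 0, 0 and 1 count in Y1 to Y3. Both were highest in O3, and neither had enough counts to be tested. The other blood cell markers were mixed. Among the MEF libraries, Spi1, Vav1 and Laptm5 had their highest CPM in O3, Cd53, Itga2b, Slamf1 and Gfi1b in O4, and Hlf in O1. Whether any library held blood cells, and their part in the results below, was not tested. In such bulk samples, fewer cells of a type and less RNA per cell cannot be told apart.

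Of the 38 members, 25 had a window in the RefSeq promoter table of GRCm38.p6, and the 250 bases before the start are shown for 7 of them. The first 4 are subunits of H3K4 methyltransferase complexes, of which Wdr5, Rbbp5 and Dpy30 were higher and Men1 lower in mESCs. Setd6, Kdm3a and Kdm7a are 3 enzymes with large increases. Where a gene had several windows, the one closest to the most annotated principal transcripts was taken. Letters are written 5′ to 3′ on the strand of the gene, and capitals mark matches on either strand to 3 motifs, GGGCGG (the GC box, bound by SP and KLF factors), CCAAT (the CCAAT box, bound by NF-Y) and CCGGAAG (the core bound by ETS factors).
Wdr5 chr2:27514897-27515146 plus strand: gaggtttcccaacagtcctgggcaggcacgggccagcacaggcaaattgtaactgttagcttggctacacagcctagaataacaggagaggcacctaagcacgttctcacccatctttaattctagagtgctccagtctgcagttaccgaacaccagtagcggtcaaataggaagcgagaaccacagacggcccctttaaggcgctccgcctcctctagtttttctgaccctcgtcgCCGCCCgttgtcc
Rbbp5 chr1:132477117-132477366 plus strand: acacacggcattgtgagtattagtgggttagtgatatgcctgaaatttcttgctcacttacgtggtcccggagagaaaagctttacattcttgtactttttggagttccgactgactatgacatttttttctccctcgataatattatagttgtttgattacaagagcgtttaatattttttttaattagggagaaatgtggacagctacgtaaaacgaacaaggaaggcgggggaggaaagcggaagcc
Dpy30 chr17:74316395-74316644 minus strand: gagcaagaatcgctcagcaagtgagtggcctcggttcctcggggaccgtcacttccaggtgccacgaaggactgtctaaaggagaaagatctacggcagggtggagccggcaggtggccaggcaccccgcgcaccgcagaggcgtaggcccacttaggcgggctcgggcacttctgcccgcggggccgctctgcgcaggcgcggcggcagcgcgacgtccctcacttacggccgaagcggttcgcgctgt
Men1 chr19:6334729-6334978 plus strand: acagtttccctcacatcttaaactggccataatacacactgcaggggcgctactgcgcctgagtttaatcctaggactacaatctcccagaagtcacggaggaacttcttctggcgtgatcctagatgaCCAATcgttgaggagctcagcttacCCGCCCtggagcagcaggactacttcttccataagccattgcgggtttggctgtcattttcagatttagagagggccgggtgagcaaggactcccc
Setd6 chr8:95715663-95715912 plus strand: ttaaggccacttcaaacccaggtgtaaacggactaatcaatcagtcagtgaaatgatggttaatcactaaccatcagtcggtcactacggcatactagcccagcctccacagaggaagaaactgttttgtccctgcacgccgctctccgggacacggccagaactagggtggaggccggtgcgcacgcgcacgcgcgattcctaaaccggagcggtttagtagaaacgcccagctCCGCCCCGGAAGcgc
Kdm3a chr6:71632918-71633167 minus strand: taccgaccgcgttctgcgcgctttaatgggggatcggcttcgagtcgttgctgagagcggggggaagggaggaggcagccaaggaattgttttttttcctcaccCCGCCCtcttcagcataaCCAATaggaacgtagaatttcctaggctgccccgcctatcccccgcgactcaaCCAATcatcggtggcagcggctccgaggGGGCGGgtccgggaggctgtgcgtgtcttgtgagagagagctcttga
Kdm7a chr6:39206774-39207023 minus strand: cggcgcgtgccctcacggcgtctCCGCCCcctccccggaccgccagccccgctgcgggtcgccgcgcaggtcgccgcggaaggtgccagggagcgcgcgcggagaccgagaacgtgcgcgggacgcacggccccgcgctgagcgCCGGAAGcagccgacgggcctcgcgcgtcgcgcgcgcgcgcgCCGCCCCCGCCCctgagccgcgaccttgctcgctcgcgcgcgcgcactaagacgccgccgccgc
The windows of Rbbp5 and Dpy30 held none of the 3 motifs. In the window of Setd6, a GC box and an ETS core share 1 base.

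Over the 25 members with a window, GGGCGG was found in 15 (60%), against 32.7% of all 32851 windows of the same length in the table. CCGGAAG was found in 5 of the 25 members (20%), against 6.91% of all windows. CCAAT was found in 8 members (32%), near the 33.9% of all windows. CACGTG (an E-box) and TGACGTCA (the CRE), read on both strands, were in 0 of 25, against 6.02% and 1.55% of all windows. The member windows were rich in CpG, with a median of 20 CpG dinucleotides against 6 over all windows, and the GC box itself contains a CpG. The window of Setd5 lies 27570 bases from the nearest principal start. These matches describe letters, not bound sites. A member entered only with its picked window, chosen by principal transcripts, while the comparison used every window in the table without such a pick. The part of this pick in the differences was not tested.

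Of the 38 members, 37 had enough counts to be tested, and 28 of these differed between the cell types (adjusted p under 0.05). The p-values are from the quasi-likelihood F-test of edgeR, adjusted by Benjamini-Hochberg over all 16580 genes tested in 4 MEF and 3 mESC libraries. The called members are 75.7% of the tested members, against 47.9% of all tested genes. In mESCs 19 members were higher, or 51.4% against 22.8% of all tested genes, and 9 were lower, or 24.3% against 25%. The counts by role below rest on few genes each and are to be read beside these shares. The median log2 fold change, mESC over MEF, was 0.61 over the tested members and 0.04 over all tested genes. The members were also more abundant than most genes, with a median of 5.67 log2CPM (prior count 2) against 3.49, and the part of abundance in these shares was not tested. Without scaling beyond library size the median of all genes moved from 0.04 to 0.32 and that of the members from 0.61 to 0.89, with 20 members higher and 7 lower.

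Of the 37 tested members, 11 were higher by at least 2-fold (against 17% of all tested genes) and 5 were lower (against 19.9%). The members spanned log2 fold changes from -1.48 for Nsd3 to 2.59 for Ash2l. The median size of the change, regardless of sign, was 0.96 in members and 0.81 in all tested genes. In 30 of the 37 members all mESC libraries lay beyond all MEF libraries (81.1%, against 52.1% of all tested genes). Of the 37, 20 were higher in this way (against 25.9% of all tested genes) and 10 lower in mESCs (against 26.2%). The 30 include the 28 called members, with Kmt2a and Kdm2a, which did not pass the test.

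**Figure D1:**
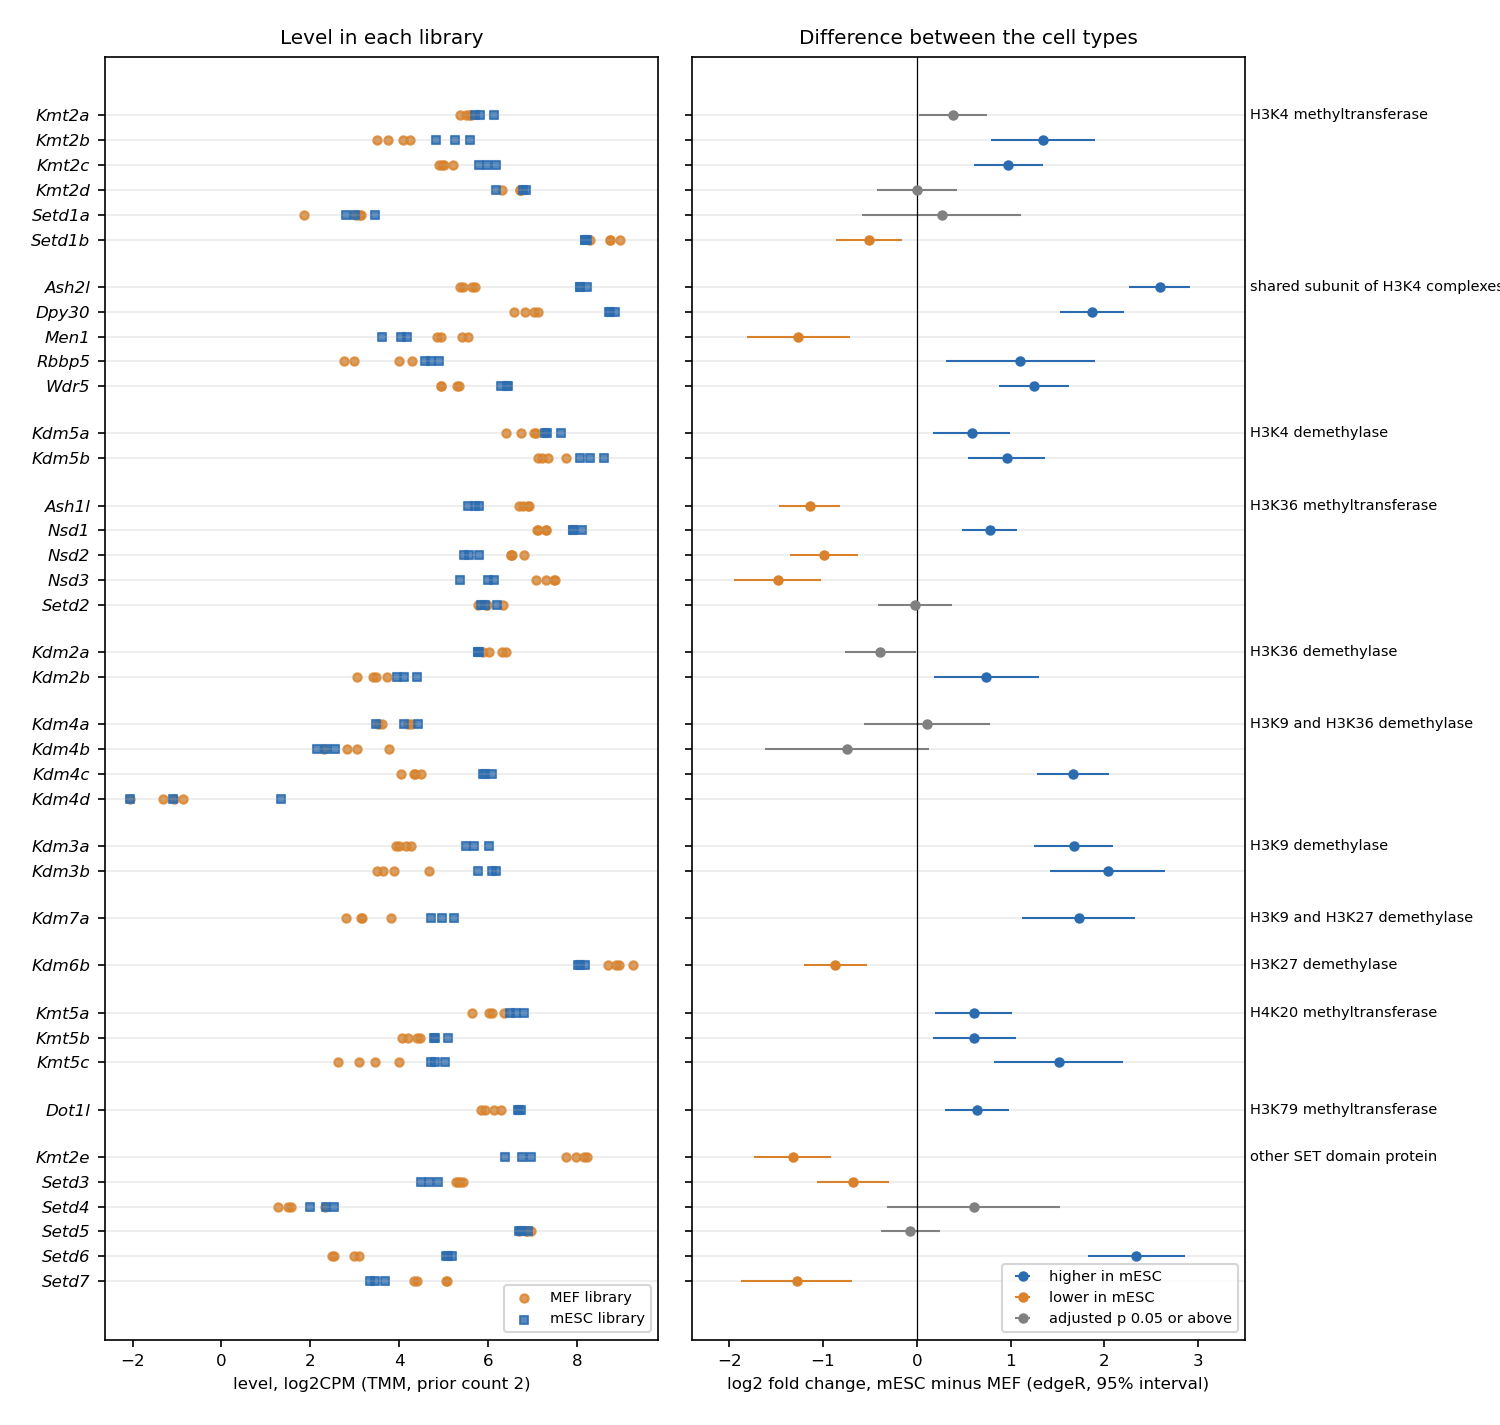
Left, level of each of the 38 members in each library in log2CPM (TMM scaling, prior count 2), with circles for the 4 MEF and squares for the 3 mESC libraries. Right, log2 fold change of mESC over MEF with its 95% interval from edgeR for the 37 tested members, grouped by role, in which Ash2l, Setd6 and Kdm3b stand farthest to the right and Nsd3 farthest to the left.

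**Figure D2:**
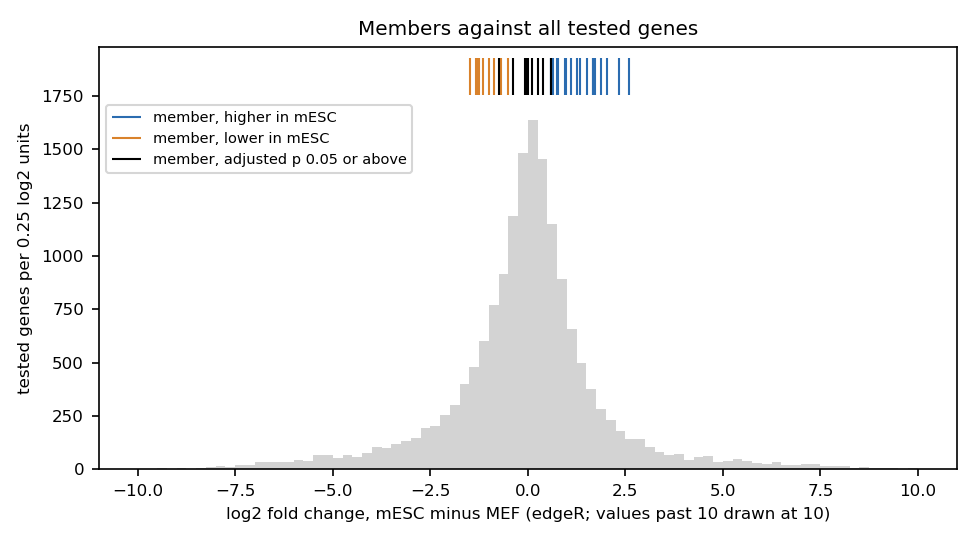
Histogram of the log2 fold change of mESC over MEF for the 16580 tested genes in bins of 0.25, with a tick above it for each tested member. The member ticks lie between -1.48 and 2.59, inside the body of the histogram, and 19 ticks mark members that were higher.

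All 5 members that are subunits of H3K4 methyltransferase complexes were called with at least a 2-fold difference, against 36.9% of all tested genes. Wdr5, Rbbp5, Ash2l and Dpy30, which together form the core that the Kmt2 and Setd1 enzymes need for full activity, were all higher in mESCs, by 2.15-fold to 6.03-fold. Men1, which encodes menin, a partner of the Kmt2a and Kmt2b complexes, was the 1 subunit of 5 that was lower.

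Ash2l (chr8:25815996-25847694, minus strand, here and below on GRCm38 after GENCODE M21), which binds the SET domain together with Rbbp5, had 49.5, 42.7, 51.5 and 40.9 CPM in MEF libraries O1 to O4 and 269, 300.4 and 266 CPM in mESC libraries Y1 to Y3. All 3 mESC libraries lay far above the 4 MEF libraries, and the 6.03-fold difference was the largest of all members (log2 fold change 2.59, standard error 0.147, edgeR adjusted p = 2.92e-07). Dpy30 (chr17:74299474-74323944, minus strand), a small protein that docks on Ash2l, had 139.9, 131, 95.1 and 113 CPM in MEF libraries O1 to O4 and 458, 423 and 430.2 CPM in mESC libraries Y1 to Y3. Again no library overlapped, and the level was 3.65-fold higher in mESCs (log2 fold change 1.87, standard error 0.154, edgeR adjusted p = 3.79e-06).

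Wdr5 (chr2:27515157-27536535, plus strand), a WD40 protein that joins the enzyme to the core, had 30.4, 40.4, 39.3 and 30.5 CPM in MEF libraries O1 to O4 and 87.4, 86.1 and 77.5 CPM in mESC libraries Y1 to Y3. The groups were apart and each was tight, with a 2.38-fold higher level in mESCs (log2 fold change 1.25, standard error 0.168, edgeR adjusted p = 0.000131). Rbbp5 (chr1:132477365-132505659, plus strand), the subunit that contacts the nucleosome and the enzyme, had 6.52, 7.62, 15.6 and 19.4 CPM in MEF libraries O1 to O4 and 29.4, 23.5 and 26.1 CPM in mESC libraries Y1 to Y3. Its MEF libraries fell in a low and a high pair and still lay below every mESC library, with a 2.15-fold difference (log2 fold change 1.11, standard error 0.361, edgeR adjusted p = 0.0266). Leaving out O1, O2, Y1 or Y3 raised the adjusted p of Rbbp5 to 0.0525, 0.0619, 0.083 and 0.058, and 5.45% of its 50-base sequences are shared with other genes, mostly with Gm11977.

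Men1 (chr19:6334979-6340891, plus strand) had 30.2, 46.3, 42.3 and 28.8 CPM in MEF libraries O1 to O4 and 16.1, 12.0 and 17.9 CPM in mESC libraries Y1 to Y3. Every mESC library was lower than every MEF library, by 2.40-fold on average in the fit (log2 fold change -1.26, standard error 0.247, edgeR adjusted p = 0.00162).

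**Figure D3:**
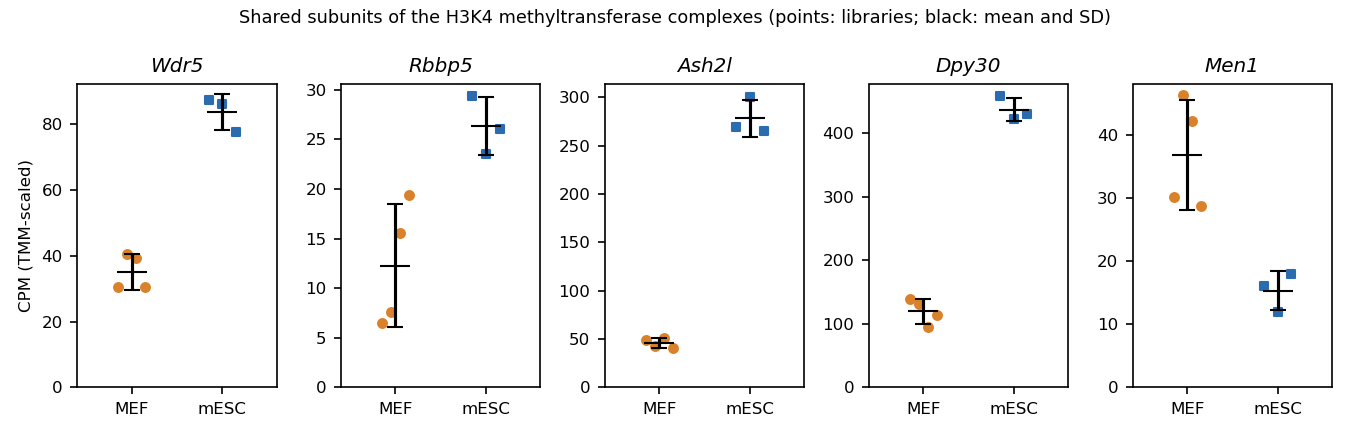
CPM after TMM scaling (vertical axis, from 0, with its own scale in each panel) of the 5 subunits of H3K4 methyltransferase complexes in MEF and mESC libraries. Points are libraries and the black bars the mean with its SD (n = 4 and 3), and the mESC points lie above all MEF points for Wdr5, Rbbp5, Ash2l and Dpy30 and below them for Men1.

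Among the 6 H3K4 methyltransferases themselves, 2 were higher, 1 was lower and 3 did not pass the test. Kmt2b (chr7:30568858-30588726, minus strand), which acts at promoters including those of developmental genes, had 18.6, 11.1, 13.2 and 16.7 CPM in MEF libraries O1 to O4 and 37.8, 28.1 and 48.1 CPM in mESC libraries Y1 to Y3. The groups did not overlap, though the mESC libraries spread widely, and the level was 2.54-fold higher in mESCs (log2 fold change 1.35, standard error 0.252, edgeR adjusted p = 0.00125). Kmt2c, which monomethylates H3K4 at enhancers, rose by a log2 fold change of 0.97 (standard error 0.167, edgeR adjusted p = 0.000691), with means of 32.3 ± 3.20 CPM in MEFs and 63.5 ± 8.38 CPM in mESCs (SD, n = 4 and 3).

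Setd1b, one of the pair of SET1 enzymes behind most H3K4 trimethylation, was lower in mESCs, with 418 ± 76.9 CPM in MEFs and 294 ± 5.10 CPM in mESCs (SD, n = 4 and 3), a log2 fold change of -0.51 (edgeR adjusted p = 0.0217). MEF library O4 of Setd1b stood at 314 CPM, close to the 290.0 to 299.5 CPM of the mESC libraries. The call of Setd1b was lost without scaling beyond library size (log2 fold change -0.22, adjusted p = 0.234) and without O2, Y1, Y2 or Y3 (adjusted p of 0.0522, 0.0649, 0.0507 and 0.0601).

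The other 3 H3K4 methyltransferases gave no call. Kmt2a, the founder of the family, had means of 45.4 ± 3.21 CPM in MEFs and 59.5 ± 9.62 CPM in mESCs (SD, n = 4 and 3) and a log2 fold change of 0.39 (95% interval 0.02 to 0.75, edgeR adjusted p = 0.0749). Its libraries did not overlap, and without scaling beyond library size its value was 0.67 (edgeR adjusted p = 0.00622). Kmt2d, the partner paralog of Kmt2c, had means of 98.9 ± 13.2 CPM in MEFs and 98.9 ± 22.9 CPM in mESCs, with an interval of the log2 fold change from -0.43 to 0.43, and O4 stood at 79.2 CPM below the other MEF libraries. Setd1a had means of 7.06 ± 2.48 CPM in MEFs and 8.43 ± 2.11 CPM in mESCs and an interval of -0.58 to 1.11, with O1 at 3.36 CPM below the other MEF libraries. For Setd1a, 51.8% of its exonic bases lie in Gm49388, a gene model on the same strand, so reads there can be split between the models or lost.

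Both H3K4 demethylases among the members, Kdm5a and Kdm5b, were higher in mESCs. Kdm5b had 166 ± 33.5 CPM in MEFs and 323 ± 60.5 CPM in mESCs (SD, n = 4 and 3), a log2 fold change of 0.96 (standard error 0.185, edgeR adjusted p = 0.00149). Kdm5a had 114 ± 22.8 CPM in MEFs and 172 ± 24.8 CPM in mESCs, a log2 fold change of 0.59 (edgeR adjusted p = 0.0232), which did not pass without O4 (adjusted p = 0.0551) or without Y2 (adjusted p = 0.104).

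The H3K36 methyltransferases moved in opposite directions. Of the 5, Nsd2, Nsd3 and Ash1l, which add 1 or 2 methyl groups to H3K36, were lower in mESCs, their relative Nsd1 was higher, and Setd2, the enzyme of H3K36 trimethylation, gave no call.

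Nsd3 (chr8:25601601-25719667, plus strand) had 157, 180.2, 178 and 134 CPM in MEF libraries O1 to O4 and 63.2, 69.6 and 41.2 CPM in mESC libraries Y1 to Y3. No library overlapped, and the fitted level was 2.80-fold lower in mESCs, the largest fall of any member (log2 fold change -1.48, standard error 0.208, edgeR adjusted p = 0.000178). Ash1l (chr3:88950622-89079375, plus strand) had 110.1, 103, 119 and 121 CPM in MEF libraries O1 to O4 and 51.9, 55.3 and 46.8 CPM in mESC libraries Y1 to Y3. Both groups were tight and apart, with a 2.21-fold lower level in mESCs (log2 fold change -1.14, standard error 0.149, edgeR adjusted p = 0.000105).

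Nsd2 had 96.5 ± 10.7 CPM in MEFs and 48.6 ± 5.92 CPM in mESCs (SD, n = 4 and 3), and its log2 fold change of -0.99 (edgeR adjusted p = 0.000532) came just short of 2-fold. MEF library O2 stood above the other three for Nsd2, at 112.5 CPM. Nsd1 had 148 ± 11.7 CPM in MEFs and 253 ± 21.1 CPM in mESCs and rose by 0.78 on the log2 scale (edgeR adjusted p = 0.000689). Setd2 had 64.8 ± 10.9 CPM in MEFs and 63.9 ± 8.65 CPM in mESCs, and the interval of its log2 fold change ran from -0.41 to 0.38.

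The H3K36 demethylases of the Kdm2 family were close to the threshold. Kdm2b, which also brings a Polycomb complex to CpG islands, had 10.6 ± 2.02 CPM in MEFs and 17.7 ± 2.92 CPM in mESCs (SD, n = 4 and 3) and a log2 fold change of 0.74 (edgeR adjusted p = 0.0323). The call of Kdm2b was lost without O1, O3, O4, Y2 or Y3 (adjusted p of 0.079, 0.0647, 0.0536, 0.0636 and 0.132) and with no filter beyond 1 count (0.102). Of the last 1000 exonic bases of Kdm2b, 62.7% lie opposite exons of Rnf34, which had a log2 fold change of 0.46. The strand setting of the counting is not given in the sources used here, so the counts of Kdm2b are uncertain. Kdm2a had 71.8 ± 12.1 CPM in MEFs and 54.8 ± 0.718 CPM in mESCs, lower in every mESC library, with a log2 fold change of -0.39 (95% interval -0.77 to -0.01, edgeR adjusted p = 0.0832) that, among the alternatives run, passed the test only without O3 (-0.48, adjusted p = 0.0404).

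Of the 6 tested members that clear methyl groups from H3K9, 4 were higher in mESCs, against 22.8% of all tested genes. The others gave no call. Among the erasers outside the members taken up below, Jmjd1c was higher and Phf2 lower. Kdm3a and Kdm3b, which remove H3K9 mono- and dimethylation, were both among the largest increases. Kdm3a (chr6:71588972-71632990, minus strand) had 15.1, 15.7, 18.9 and 17.5 CPM in MEF libraries O1 to O4 and 45.0, 51.1 and 64.5 CPM in mESC libraries Y1 to Y3. The groups were far apart, and the fitted difference was 3.19-fold (log2 fold change 1.67, standard error 0.192, edgeR adjusted p = 4.32e-05). Kdm3b (chromosome 18, plus strand) had 11.1, 12.2, 25.2 and 14.5 CPM in MEF libraries O1 to O4 and 54.3, 72.1 and 67.2 CPM in mESC libraries Y1 to Y3. O3 stood above the other MEF libraries but below every mESC library, and the level was 4.10-fold higher in mESCs (log2 fold change 2.03, standard error 0.278, edgeR adjusted p = 0.000151). Of the exonic bases of Kdm3b, 24.6% lie opposite exons of Gm26538, with 0 of its last 1000 exonic bases among them.

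Kdm4c (chr4:74242497-74405860, plus strand), which removes H3K9 and H3K36 trimethylation, had 20.1, 16.2, 19.8 and 22.3 CPM in MEF libraries O1 to O4 and 58.5, 67.7 and 61.0 CPM in mESC libraries Y1 to Y3. Neither group varied much, and they were far apart, with a 3.18-fold higher level in mESCs (log2 fold change 1.67, standard error 0.173, edgeR adjusted p = 2.07e-05). Its tested paralogs gave no call. Kdm4a had 15.1 ± 4.04 CPM in MEFs and 16.3 ± 5.09 CPM in mESCs (SD, n = 4 and 3) and an interval of the log2 fold change from -0.56 to 0.78, and Kdm4b had 8.23 ± 3.68 CPM in MEFs and 4.89 ± 0.718 CPM in mESCs with an interval from -1.62 to 0.13. Kdm4d, known from the testis, was not tested, with at most 2 counts in any library but Y1, where 21 counts were found. Kdm4d shares 10.2% of its 50-base sequences with other genes, mostly with Kdm4dl.

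Kdm7a (chr6:39136623-39206789, minus strand), which removes dimethylation from H3K9 and H3K27, had 8.63, 6.71, 8.75 and 13.8 CPM in MEF libraries O1 to O4 and 26.1, 37.2 and 30.7 CPM in mESC libraries Y1 to Y3. Every mESC library lay above every MEF library, by 3.31-fold in the fit (log2 fold change 1.73, standard error 0.272, edgeR adjusted p = 0.000403). The H3K27 trimethylation demethylase Kdm6b, known for its induction in macrophages, went the other way. It was lower in mESCs, with 496 ± 85.0 CPM in MEFs and 272 ± 14.6 CPM in mESCs (SD, n = 4 and 3), a log2 fold change of -0.87 (edgeR adjusted p = 0.000814), and 4.11% of its exonic bases lie opposite Kdm6bos.

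All 3 H4K20 methyltransferases were higher in mESCs. Kmt5c (chr7:4740115-4747514, plus strand), which sets H4K20 trimethylation at heterochromatin, had 8.25, 10.7, 5.87 and 15.7 CPM in MEF libraries O1 to O4 and 32.3, 27.8 and 26.1 CPM in mESC libraries Y1 to Y3. The MEF libraries were scattered and all lay below the mESC libraries, with a 2.85-fold difference (log2 fold change 1.51, standard error 0.310, edgeR adjusted p = 0.00219). Kmt5a, the monomethylase that acts around mitosis, had 65.7 ± 13.1 CPM in MEFs and 100.2 ± 10.5 CPM in mESCs (SD, n = 4 and 3) and a log2 fold change of 0.61 (edgeR adjusted p = 0.0192), which did not pass without Y1 (adjusted p = 0.0816) or without Y3 (adjusted p = 0.05004). Kmt5b, which adds the second methyl group, had 19.4 ± 2.55 CPM in MEFs and 29.6 ± 3.99 CPM in mESCs and a log2 fold change of 0.61 (edgeR adjusted p = 0.0268). The call of Kmt5b was lost without O1, O4 or Y2 (adjusted p of 0.0689, 0.0591 and 0.112) and with no filter beyond 1 count (0.109).

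Dot1l, the H3K79 methyltransferase and the 1 writer here without a SET domain, had 66.1 ± 9.24 CPM in MEFs and 103 ± 2.09 CPM in mESCs (SD, n = 4 and 3). It rose by 0.65 on the log2 scale (standard error 0.155, edgeR adjusted p = 0.00554), and its mESC libraries were within 101.6 to 106 CPM.

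The other 6 SET domain proteins, several of which act on proteins other than histones, split into 1 higher, 3 lower and 2 without a call. Setd6 (chr8:95715881-95719010, plus strand), which methylates the NF-κB subunit RelA, had 8.35, 5.34, 7.67 and 5.57 CPM in MEF libraries O1 to O4 and 36.2, 32.8 and 34.2 CPM in mESC libraries Y1 to Y3. It was the second largest increase of the members at 5.07-fold, with tight and separate groups (log2 fold change 2.34, standard error 0.234, edgeR adjusted p = 1.57e-05). Setd7 (chr3:51515319-51560879, minus strand), a monomethylase of H3K4 and of many other proteins, had 33.0, 33.7, 20.9 and 19.9 CPM in MEF libraries O1 to O4 and 9.97, 12.5 and 10.7 CPM in mESC libraries Y1 to Y3. Its mESC libraries were all under its lowest MEF library, with a 2.43-fold lower level in the fit (log2 fold change -1.28, standard error 0.266, edgeR adjusted p = 0.00239).

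Kmt2e (chr5:23434441-23504235, plus strand), a relative of the Kmt2 enzymes with no known methyltransferase activity, had 253, 214, 300.1 and 286 CPM in MEF libraries O1 to O4 and 82.7, 124 and 109 CPM in mESC libraries Y1 to Y3. The groups did not overlap and the fit gave a 2.50-fold lower level in mESCs (log2 fold change -1.32, standard error 0.185, edgeR adjusted p = 0.000175). Of the last 1000 exonic bases of Kmt2e, where a 3′-biased library reads, 97.2% lie opposite exons of Srpk2, so reads of both genes cannot be told apart if strand was not used. Srpk2 itself had a log2 fold change of -0.09 (edgeR adjusted p = 0.687).

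Setd3, the histidine methyltransferase of actin, was lower in mESCs, with 40.5 ± 1.88 CPM in MEFs and 25.4 ± 3.44 CPM in mESCs (SD, n = 4 and 3), a log2 fold change of -0.68 (edgeR adjusted p = 0.00822). Without scaling beyond library size its value was -0.39 (edgeR adjusted p = 0.0959), and 16.4% of its 50-base sequences are shared with other genes, mostly with Gm14026. Setd4 had 3.06 ± 1.18 CPM in MEFs and 4.70 ± 0.896 CPM in mESCs, with an interval of the log2 fold change from -0.31 to 1.53, and Setd5 had 115 ± 8.91 CPM in MEFs and 109 ± 8.99 CPM in mESCs, with an interval from -0.38 to 0.25. For the 9 members without a call, the widths of these intervals limit what can be said, and a difference of 1.5-fold lies outside the intervals of Setd2, Setd5 and Kmt2d only.

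Close paralogs were also compared with each other by the ratio of their counts within each library, a quantity that needs no scaling between libraries. Of 13 pairs, the log2 ratios of mESC and MEF libraries did not overlap in 8. For 7 of these the exact permutation test of the difference of means over the 35 splits of 4 and 3 libraries gave a two-sided p of 0.0286, the smallest it can give, or 0.0531 after Benjamini-Hochberg adjustment over the 13 pairs, so no pair passed 0.05 after adjustment. Kdm4a/Kdm4b had a p of 0.0571 in the same exact test (adjusted p = 0.0825). For single genes, the libraries did not overlap in 52.1% of all tested genes, and the share over other gene pairs was not computed. The pairs of the Nsd and Kdm4 families reuse the same genes. All pairs draw on members tested above, so the ratios are not separate results.

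In the Nsd family, the ratios of Nsd1 to its relatives were higher in mESCs. The log2 ratio of Nsd1 to Nsd3 was 0.01, -0.40, -0.18 and 0.05 in MEF libraries O1 to O4 and 1.93, 1.79 and 2.75 in mESC libraries Y1 to Y3, a difference of 2.29 that makes the ratio 4.88-fold higher in mESCs. The log2 ratio of Nsd1 to Nsd2 was 0.80, 0.28, 0.77 and 0.61 in MEF libraries O1 to O4 and 2.13, 2.35 and 2.67 in mESC libraries Y1 to Y3, or 3.41-fold higher in mESCs. In both, every mESC library lay above every MEF library, while the ratio of Nsd2 to Nsd3 overlapped between the cell types (difference 0.52).

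In the Kdm4 family, the ratios of Kdm4a and Kdm4b to Kdm4c were lower in mESCs. The log2 ratio of Kdm4b to Kdm4c was -1.56, -1.76, -1.29 and -0.73 in MEF libraries O1 to O4 and -3.36, -3.99 and -3.64 in mESC libraries Y1 to Y3, and it was 5.03-fold lower in mESCs. Kdm4a to Kdm4c differed by -1.58 and Kdm4a to Kdm4b by 0.75 on the log2 scale, both with separate groups.

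Among the other pairs, the log2 ratio of Kdm2a to Kdm2b was lower in mESCs by 1.12 (3.00, 2.70, 2.50 and 2.84 in MEF libraries O1 to O4 and 1.84, 1.68 and 1.41 in mESC libraries Y1 to Y3), with the uncertainty of the Kdm2b counts given above. Kmt2c to Kmt2d differed by 0.99 and Kmt2a to Kmt2b by -0.96. The groups overlapped for Kmt5b/Kmt5c (difference -0.97), Setd1a/Setd1b (0.81), Kdm3a/Kdm3b (-0.44) and Kdm5a/Kdm5b (-0.36).

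**Figure D4:**
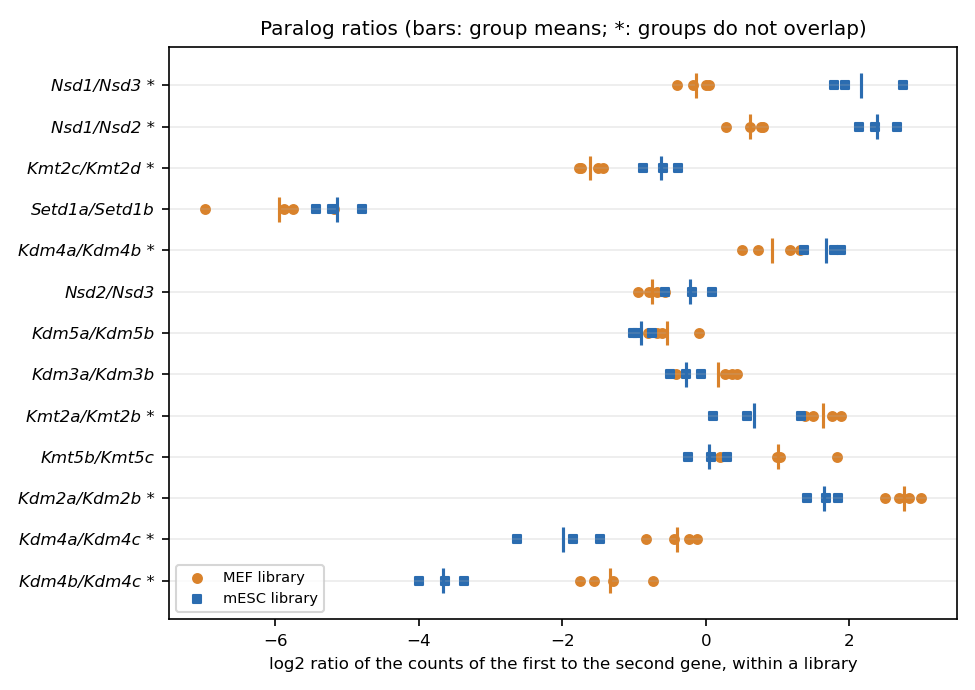
Log2 ratio of the counts of the first to the second gene of each of 13 paralog pairs within each library (0.5 counts added), with circles for MEF and squares for mESC libraries and vertical bars for group means. An asterisk marks the 8 pairs whose groups do not overlap, and Nsd1/Nsd3, Nsd1/Nsd2 and Kdm4b/Kdm4c show the widest gaps.

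Outside the members, 37 other genes of the lysine methylation pathway were listed, and 34 of them were tested. In mESCs 12 were higher and 9 lower, which is 35.3% and 26.5% of those tested, against 22.8% and 25% of all tested genes, and without scaling beyond library size 16 were higher and 6 lower. The median log2 fold change of the 34 was 0.27.

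Among the other writers, 6 of 12 tested were higher (50%) and 1 was lower (8.33%), against 22.8% and 25% of all tested genes. Those with at least a 2-fold change (edgeR adjusted p under 0.05) were all higher in mESCs. Ezh2 and Ezh1, the alternative H3K27 methyltransferases of Polycomb complex 2, had log2 fold changes of 1.32 and 1.75. The H3K9 methyltransferases Suv39h2 and Setdb1 had 1.41 and 1.01, and Smyd3, a methyltransferase with targets in the cytoplasm, had 1.32.

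Among the other erasers, 2 of 7 tested were higher and 2 lower (28.6% each), near the 22.8% and 25% of all tested genes. Jmjd1c, the relative of Kdm3a and Kdm3b, had 44.4, 40.5, 30.2 and 38.8 CPM in MEF libraries O1 to O4 and 145, 133 and 127 CPM in mESC libraries Y1 to Y3. It was 3.51-fold higher in mESCs (log2 fold change 1.81, standard error 0.167, edgeR adjusted p = 8.89e-06), and Kdm3a and Kdm3b were higher as well. Phf2, a relative of Kdm7a, fell by 6.87-fold, with 47.8 ± 17.3 CPM in MEFs and 6.97 ± 3.17 CPM in mESCs (SD, n = 4 and 3, edgeR adjusted p = 0.000254).

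Of the partners of the H3K4 complexes beyond the members, 2 of 9 tested were higher (22.2%) and 4 lower (44.4%). The shares of all tested genes were 22.8% and 25%. Hcfc2, of the HCF family of scaffold proteins, was the 1 of these partners with at least a 2-fold change. It had 33.3 ± 8.61 CPM in MEFs and 6.22 ± 2.61 CPM in mESCs (SD, n = 4 and 3), a log2 fold change of -2.42 (edgeR adjusted p = 0.000143). Of the 6 partners of Dot1l, 2 were higher and 2 lower (33.3% each). Mllt6 and Mllt10, which form the AF17 and AF10 cofactors, had log2 fold changes of 1.42 and 1.15, and Mllt1, the ENL reader of acetylated histones, had -1.97.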

How the data were processed

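Gene counts from RNA-seq were used for 4 MEF samples and 3 mESC samples. Reads were demultiplexed, trimmed and mapped by the authors to mm10 with STAR (release 2.4.2a in the submitters' processing notes, with another release in the study's methods). After identical molecular identifiers were collapsed, featureCounts was run over exons, and the deposited values are whole-number counts with no normalization. The annotation release and strand setting of the counting are not given in the sources used here. Rows with symbols in the form of dates (26, holding 0.249% of counts) stayed in the library totals.

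The columns give the cell type but not which sample of it. All libraries were fitted with edgeR 4.0.16 (R 4.3.3, limma 3.58.1; TMM, filterByExpr, quasi-likelihood test, no covariates), with Benjamini-Hochberg adjustment over 16580 genes and a threshold of 0.05. Levels are CPM on TMM-scaled library sizes, and log2CPM used a prior count of 2. Levels were not compared between genes, except in the paralog ratios and in the median level of members against all tested genes. Neither was corrected for gene length. Replicate libraries differed by more than sampling noise (chi-square of 15.6 to 31.1 per degree of freedom). Paralog ratios had 0.5 added to each count. Coordinates, overlaps and shared 50-base sequences are from GENCODE M21 on GRCm38. The code was tested on simulated data, in which far fewer genes changed than were called here. There edgeR recovered 12 of 103 genes with a log2 fold change of 1 in either direction. It recovered 69 of 97 genes with a log2 fold change of 2, and made 7 false calls. On the same simulated data DESeq2, an alternative below, recovered 33 of 103 and 78 of 97 such genes and made 31 false calls.

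Alternatives were DESeq2 1.42.0, no scaling, DESeq2's size factors in edgeR, filters of 1 count or of 10 counts in all libraries of either cell type, a test against a fold change of 1.5, a prior count of 0.5, 2 counts added to ratios, and each library left out in turn. The members, lists and pairs were chosen with earlier results of these data known. Members past the threshold with at least a 2-fold change are given by library, the other called members by means and fold change, and those not called by values and intervals. Of the other genes of the pathway, those called with at least a 2-fold change are named.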

Additional observations from a re-analysis of the deposited data

Results flagged for a closer look

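In 3 of the 50 sets of 4 MEF values examined (37 members and 13 paralog ratios), the highest or lowest library lay farther from the others than Dixon's 95% critical value allows, and chance flags about 1 in 20 such sets. Nsd2 was high in O2, at 6.82 log2CPM (112.5 CPM), with the other MEF libraries at 6.50 to 6.53. Setd1a was low in O1, at 1.85 log2CPM (3.36 CPM), with the others at 3.03 to 3.14. Kmt2d was low in O4, at 6.31 log2CPM (79.2 CPM), with the others at 6.71 to 6.74. These are 3 different libraries. The call of Nsd2 held without O2, and Setd1a without O1 and Kmt2d without O4 gave no call (edgeR, adjusted p under 0.05).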

How the results depend on the processing

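Of the 28 members called, 19 passed the threshold in all 13 alternative fits, and 9 (Rbbp5, Kdm2b, Setd1b, Kmt5a, Kdm5a, Dot1l, Setd3, Nsd1 and Kmt5b) lost the call in at least 1 of them. Over the alternatives 573 of 624 single-gene values kept direction and call, 34 lost the call, 2 gained one and 15 changed sign. These values cover the 37 tested members and 11 other genes of the pathway. The 11 entered only because they were called with at least a 2-fold change in these same data, which favours kept calls. Leaving out each library in turn gave 24 to 28 called members, 16 to 18 higher and 8 to 10 lower. Members whose libraries did not overlap numbered 30 to 31, and such paralog pairs 8 to 11. Groups of ratios that are apart stay apart when a library is removed, so the count of pairs could not fall. The count of members could fall only through small changes in scaling, so neither count measures stability. The ratios that came apart in some fits with a library left out were Setd1a/Setd1b, Nsd2/Nsd3, Kmt5b/Kmt5c, Kdm3a/Kdm3b and Kdm5a/Kdm5b. Testing against a fold change of 1.5 left 19 called members, 12 of them higher, and 10 other genes of the pathway, 7 higher and 3 lower. Dot1l (adjusted p = 0.304) and Nsd1 (0.0729) lost the call only there (edgeR). Without scaling beyond library size the share of calls that were higher rose from 47.7% to 60.8% over all genes and from 57.1% to 72.7% over the other genes of the pathway.

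Changes of sign touched 4 members, none of them called in any fit. With each library left out in turn, Kdm4a ran from -0.12 to 0.33, Setd2 from -0.13 to 0.089 and Kmt2d from -0.12 to 0.17, with the opposite sign without O1 and Y1 for Kdm4a, without O4, Y1 and Y3 for Setd2, and without O1, O2, O3 and Y3 for Kmt2d. Setd5 had 0.21 without scaling. Setd2 had 0.26 without scaling and 0.0024 with DESeq2's size factors. Kmt2d had 0.0056 with DESeq2, 0.28 without scaling and 0.0197 with DESeq2's size factors. The cause was not tested. No paired analysis was possible because the count columns do not say which numbered sample they hold. With 4 against 3 libraries, the exact permutation test cannot go below 0.0286, and genes with few counts, such as Kdm4d, could not be compared at this depth.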

Other observations

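A pair of neighbouring members on chromosome 8 moved in opposite directions. Nsd3 and Ash2l lie on opposite strands 96.3 kb apart (GENCODE M21, GRCm38), and had log2 fold changes of -1.48 and 2.59 in mESCs over MEFs. On chromosome 5, Kdm2b and Setd1b lie on opposite strands 152 kb apart and had 0.74 and -0.51, both lost under some alternatives. These were the 2 pairs of members within 250 kb of each other, and they were chosen after their values were seen.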
